A study of Mus musculus with 30 samples.

Results

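The renin-angiotensin system was described through 5 genes named for it, Ren1, Agt, Ace, Agtr1a and Enpep, with every probe set annotated to 1 of those symbols alone. A probe set is the group of short probes with which the array reads 1 transcript. Of the 5 genes, 4 had such a probe set, and they were read by 5 of the 31563 probe sets with a single symbol, which cover 17782 genes. Agt was read by 1423396_at, Agtr1a by 1436739_at, Enpep by 1448649_at, and Ace by 1427034_at and 1451911_a_at. No probe set was annotated to Ren1 alone, and Ren1 is not analysed here. RNA from snap-frozen kidney and skeletal muscle of 15 mice aged 6 weeks was hybridised to 30 Affymetrix mouse expression arrays, 1 array per tissue and mouse. The mutants carried the genotype labelled Kif3aKSPCre, also written Kif3aΔTub, in which a Cre driven by the promoter of kidney-specific cadherin deletes Kif3a, a motor subunit needed to build primary cilia, in tubule cells; the controls were labelled WT, and the labels name no further alleles. Mice of both genotypes received either PBS or sActRIIB-Fc, in which the ligand-binding portion of an activin receptor is joined to an antibody tail so that it traps activin and related ligands. Injections were intraperitoneal, at 10 mg/kg of the trap once a week, 2 times until week 6. In each tissue there were 4 mutants given PBS, 3 WT mice given PBS, 4 mutants given the trap and 4 WT mice given the trap.

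Renin cuts angiotensinogen, the product of Agt, to angiotensin I, and angiotensin-converting enzyme, the product of Ace, trims that to angiotensin II. Angiotensin II acts mainly through the AT1 receptor, which mice encode as Agtr1a and Agtr1b, and aminopeptidase A, the product of Enpep, removes an amino acid from angiotensin II to give angiotensin III. In the kidney these proteins control vessel tone and sodium reabsorption, and proximal tubule cells carry angiotensinogen, converting enzyme, receptor and aminopeptidase A themselves.

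The sequence before the annotated start of a member is shown because all 4 measured members were lower in mutant kidneys, as described below. The 250 bases before the start were read 5′ to 3′ along the strand of the gene from a RefSeq table of build GRCm38.p6, which holds 3 of the 4 measured members. A set of short motifs was searched on both strands and is in capitals: TATAAA, the core of a TATA box, CCAAT, and GGGCGG, a GC box, of which overlapping matches were counted apart. The Agt window lies at chr8:124569707-124569956 on the minus strand, the Ace window of the upstream start at chr11:105967698-105967947 on the plus strand, and the Enpep window at chr3:129332750-129332999 on the minus strand.
Agt: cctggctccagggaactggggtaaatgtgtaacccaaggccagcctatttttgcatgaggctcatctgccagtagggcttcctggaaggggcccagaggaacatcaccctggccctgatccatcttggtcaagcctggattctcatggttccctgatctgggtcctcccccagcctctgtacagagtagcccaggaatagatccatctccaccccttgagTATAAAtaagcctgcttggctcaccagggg
Ace: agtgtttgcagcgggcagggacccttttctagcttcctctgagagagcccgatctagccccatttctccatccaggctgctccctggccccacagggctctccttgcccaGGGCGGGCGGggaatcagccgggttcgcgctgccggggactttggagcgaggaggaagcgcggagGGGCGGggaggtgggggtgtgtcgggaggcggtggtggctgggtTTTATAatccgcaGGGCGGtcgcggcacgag
Enpep: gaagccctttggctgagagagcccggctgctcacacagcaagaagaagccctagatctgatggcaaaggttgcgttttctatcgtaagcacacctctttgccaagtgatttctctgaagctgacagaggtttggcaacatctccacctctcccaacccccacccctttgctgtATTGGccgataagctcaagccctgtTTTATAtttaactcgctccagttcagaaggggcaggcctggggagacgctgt
Each of the 3 windows held 1 TATAAA, on the strand of the gene in Agt but on the opposite strand in Ace and Enpep, where it is printed as TTTATA. The leftmost printed base of the match lay 30 bases before the start in Agt, 31 in Ace and 52 in Enpep. The Ace window also held 4 GGGCGG and the Enpep window 1 CCAAT on the opposite strand (printed as ATTGG), whereas the Agt window held neither. Ace has a second annotated start, the one known from testis, with its window at chr11:105974939-105975188 on the plus strand. It held 1 CCAAT, also on the opposite strand, but no TATAAA. Of 32817 windows of the same length, 12.4% held TATAAA, 33.8% held CCAAT and 32.7% held GGGCGG. Which Ace start each probe set reports was not examined.

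Over all 35088 probe sets, the deposited log2 values had medians of 6.09 to 6.24 per kidney array and 5.94 to 6.06 per muscle array. Arrays of a group correlated at 0.976 or more. Kif3a itself (probe set 1420375_at) averaged 7.33 ± 0.12 in mutant kidneys under PBS and 7.83 ± 0.07 in WT kidneys under PBS (SD, n = 4 and 3), a log2 change of -0.50 ± 0.15 (SE) that passed the test (limma, adjusted p = 0.011). Under the trap it averaged 7.63 ± 0.30 in mutant kidneys and 7.65 ± 0.22 in WT kidneys (n = 4 each, adjusted p = 0.905), and the labels do not say whether this probe set lies in the deleted part of Kif3a. Kif3a was also read by 1449841_at and 1455652_at, for which no test is given here. In mutant and WT kidneys 1449841_at averaged 6.51 and 6.92 under PBS, and 6.61 and 6.79 under the trap. The means of 1455652_at were 5.65 and 6.06 under PBS, and 5.78 and 5.85 under the trap. The mean of 8 skeletal muscle markers lay between 4.24 and 5.08 on the kidney arrays and between 13.96 and 14.11 on the muscle arrays, and the mean of 11 proximal tubule markers between 8.50 and 12.25 and between 5.22 and 5.47. The tissue labels and these markers agree on every array.

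In kidneys of mice given PBS, all 4 measured members were lower in mutants than in WT mice. Ace was 3.99-fold lower, Agtr1a 2.42-fold, Enpep 2.39-fold and Agt 1.42-fold lower. Of all 17782 genes, 26.7% were lower and 24.9% higher in this comparison, so that calls in either direction were common. The median log2 change was -1.27 over the 4 members and -0.08 over all genes. A gene was called at an adjusted p under 0.05 in limma, with p-values adjusted over all 17782 genes. Shares of all genes given here and below are of called genes. No such share is given for counts at an unadjusted p under 0.05. Nor was the share of all genes whose groups do not overlap counted. These are whole pieces of tissue, in which fewer cells of a type and less RNA per cell cannot be told apart.

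Agt, the angiotensin precursor, read 8.0, 7.80, 8.19 and 7.99 in mutant kidneys under PBS, against 8.48, 8.45 and 8.58 in WT kidneys under PBS (log2 intensity). Every mutant array lay below every WT array. The means were 8.0 ± 0.16 and 8.51 ± 0.07 (SD), and the log2 change was -0.51 ± 0.14 (SE, adjusted p = 0.00783).

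Ace, the converting enzyme, read 5.80, 6.43, 5.80 and 5.97 on probe set 1427034_at in mutant kidneys under PBS, against 8.21, 7.76 and 8.02 in WT kidneys. The groups lay over 1 log2 unit apart at their nearest arrays. The log2 change was -2.0 ± 0.20 (adjusted p = 7.46e-07). The second probe set, 1451911_a_at, read 6.02, 6.06, 5.93 and 5.93 in mutant kidneys, against 7.31, 7.06 and 7.10 in WT kidneys. Its change, -1.18 ± 0.13 (adjusted p = 2.7e-06 with every probe set as its own feature), had the same direction and a smaller size, so the fold of Ace depends on the probe set.

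Agtr1a, the main AT1 receptor gene of the mouse, read 7.86, 8.09, 8.34 and 8.45 in mutant kidneys under PBS, against 9.56, 9.33 and 9.49 in WT kidneys. The groups did not overlap, and the change was -1.28 ± 0.22 (adjusted p = 0.000185). Enpep, which degrades angiotensin II, read 10.27, 11.17, 10.55 and 10.56 in mutant kidneys, against 11.88, 11.95 and 11.87 in WT kidneys. The mutants again lay below all WT arrays but were spread more widely, with an SD of 0.38 against 0.04. The change of Enpep was -1.26 ± 0.18 (adjusted p = 2.39e-05).

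A sign of RNA quality also differed. The difference between the 3′ and 5′ control probe sets of actin was 0.761 to 1.37 log2 units in PBS mutant kidneys, against 1.4 to 1.5 in PBS WT kidneys, with no overlap. With it as a covariate all 4 members stayed called, at -1.83 for Ace, -1.57 for Agtr1a, -1.18 for Enpep and -0.45 for Agt (adjusted p = 0.0402 for Agt).

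Array medians, taken here and below over the brightest probe set of each gene, stood 0.16 higher in mutant than in WT kidneys under PBS. After each array was centred on its median, the changes were -2.16 for Ace, -1.44 for Agtr1a, -1.42 for Enpep and -0.67 for Agt, and all 4 were called. Centring raised the share of lower genes among all called genes to 70.1%, against 51.8% without it.

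**Figure D1:**
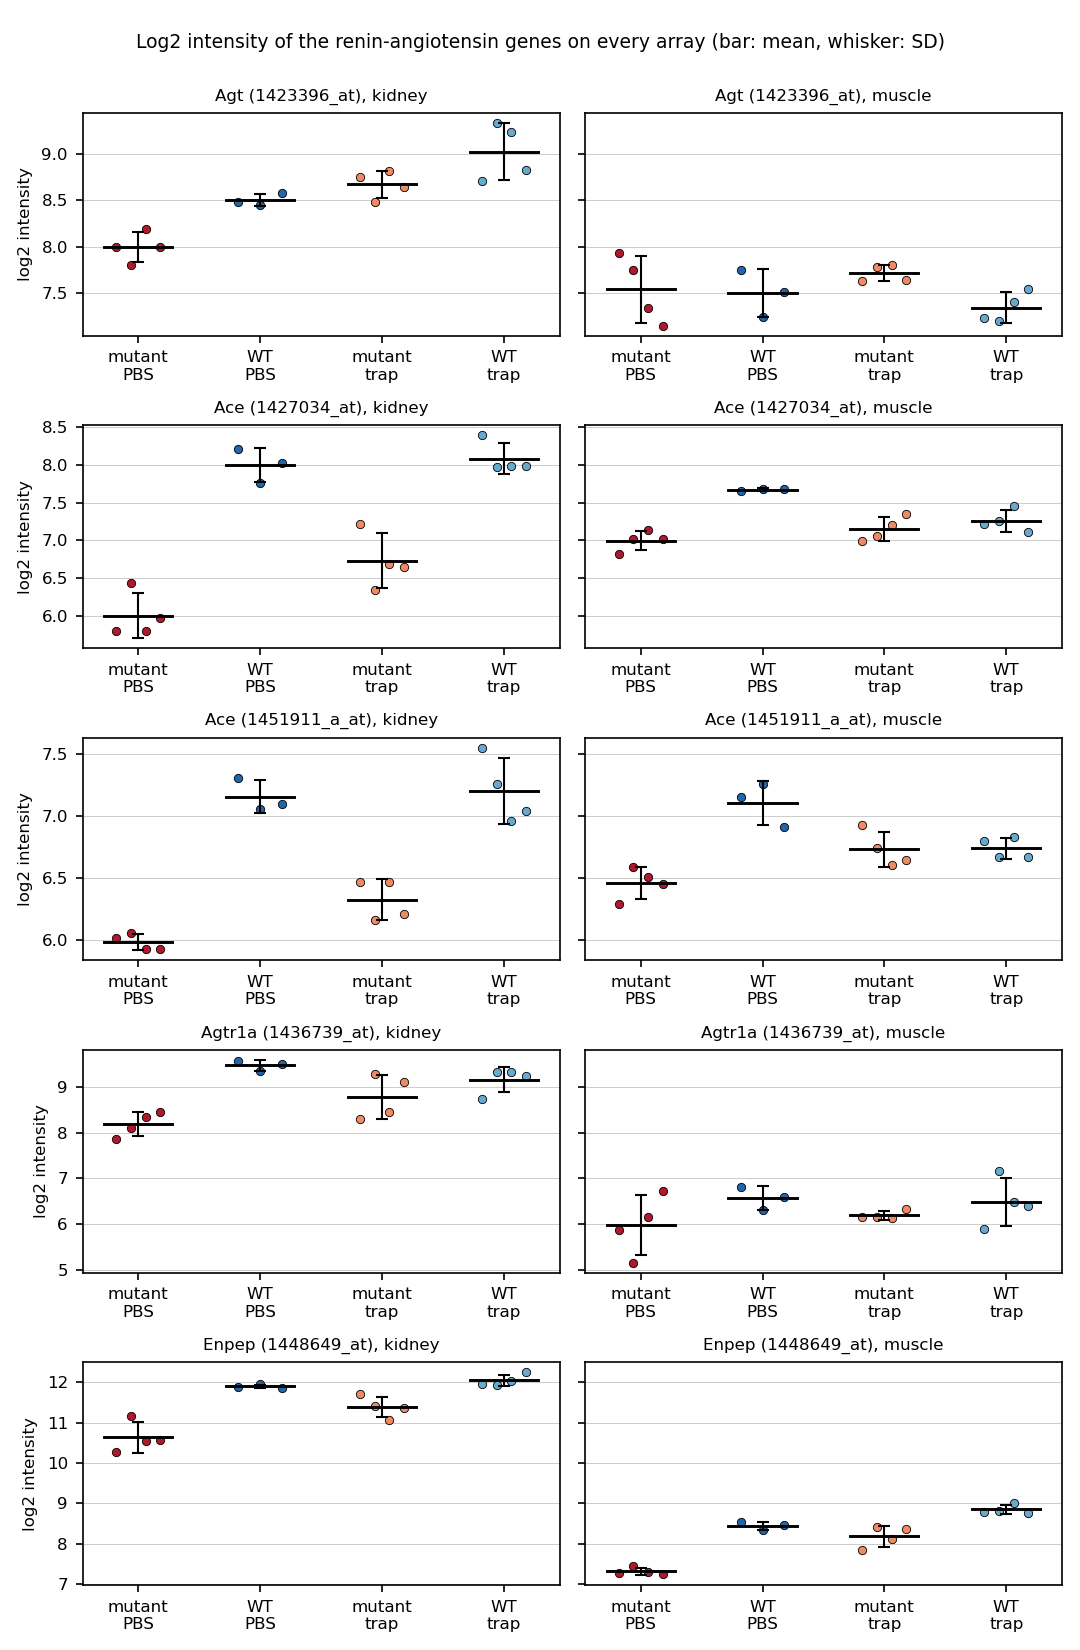
Log2 intensity of each renin-angiotensin probe set (rows) on every array, in kidney (left) and muscle (right), for mutants and WT mice under PBS and under the sActRIIB-Fc trap; points are arrays, bars means and whiskers SD. In kidney, the Ace arrays (1427034_at) of PBS mutants lie at 5.80 to 6.43 and those of PBS WT mice at 7.76 to 8.21, and in muscle the Enpep arrays lie at 7.25 to 7.44 and 8.33 to 8.53.

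Markers of some other cells moved in the same kidneys. All 11 measured proximal tubule markers were lower in PBS mutants, with a median log2 change of -2.70, the amino acid transporter Slc7a13 at -4.63 ± 0.53 and the organic anion transporter Slc22a6 at -3.68 ± 0.50. Their mean was 8.50, 10.24, 9.89 and 9.60 on the PBS mutant arrays, against 12.21, 12.23 and 12.25 on the PBS WT arrays. The PBS mutant with the highest mean, replicate 2, also had the highest Ace (6.43) and Enpep (11.17) of its group. Agtr1a was highest in replicate 4 and Agt lowest in replicate 2 (7.80). Replicate 3, the second highest on the marker mean, shared the lowest Ace (5.80). Markers of cells outside the tubule were higher, with 7 of 7 macrophage genes (Lyz2 at 4.2 ± 0.26 and C1qb at 4.09 ± 0.24), 5 of 6 fibroblast genes (Col1a1 at 2.79 ± 0.41 and Col1a2 at 2.45 ± 0.29) and 9 of 10 smooth muscle, mesangial and pericyte genes (Tagln at 3.03 ± 0.31 and Acta2 at 2.53 ± 0.32). Of 8 endothelial markers, 1 was higher (Cdh5 at 0.89 ± 0.16), and of 5 podocyte markers 1 was higher (Synpo at 1.26 ± 0.23) and 1 lower (Nphs1 at -0.81 ± 0.15). Of 7 mast cell markers 1 was higher (Kit at 1.75 ± 0.15) and 2 were lower (Tpsb2 at -0.75 ± 0.16). Of 8 genes listed as skeletal muscle markers 2 were lower, Pvalb at -4.32 ± 0.21 and Mylpf at -0.29 ± 0.12. Which kidney cells gave the Pvalb signal was not examined, so its change is not read as one of muscle cells. The call for Mylpf was lost without any one of 9 arrays (-0.32 to -0.22). None of 5 adipocyte markers was called by limma or had an unadjusted p under 0.05. Of all genes 24.9% were higher and 26.7% lower. The endothelial, podocyte, mast cell, skeletal muscle and adipocyte counts were thus near or below the background. The part of these shifts in the changes of the members was not tested.

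**Figure D2:**
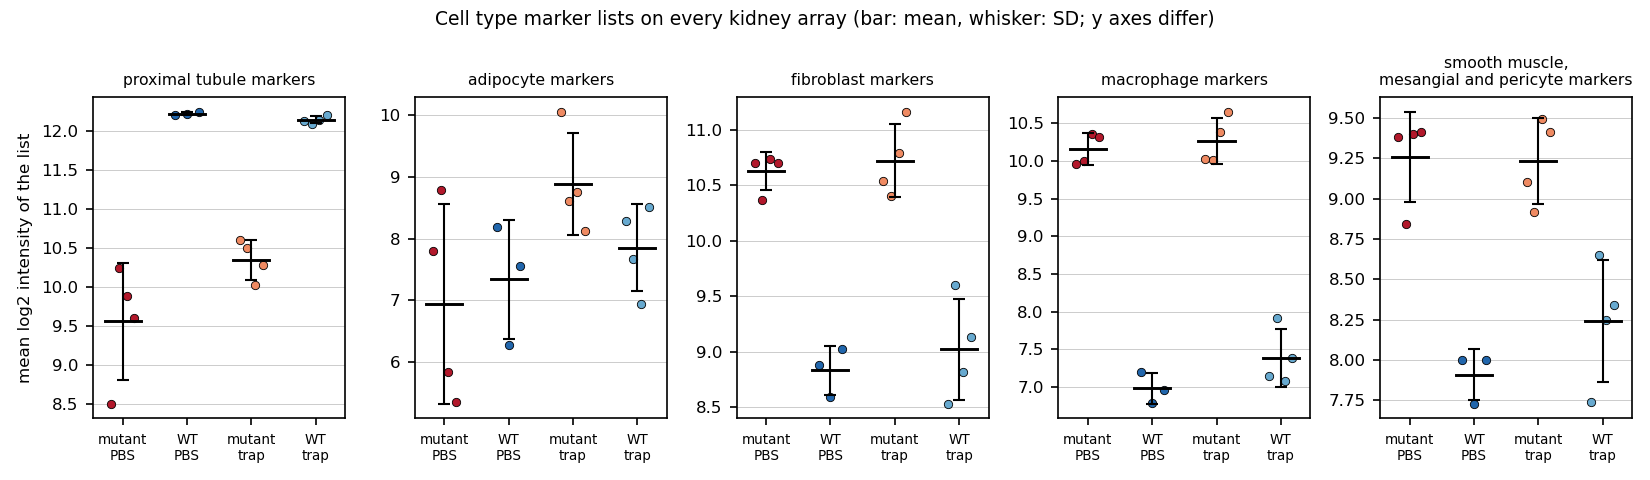
Mean log2 intensity of the genes of 5 marker lists on each kidney array, by group, with bars for means and whiskers for SD; the y axes differ between panels. The proximal tubule mean lies at 8.50 to 10.24 in PBS mutants, 12.21 to 12.25 in PBS WT mice, 10.02 to 10.60 in trap mutants and 12.10 to 12.21 in trap WT mice.

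**Figure D3:**
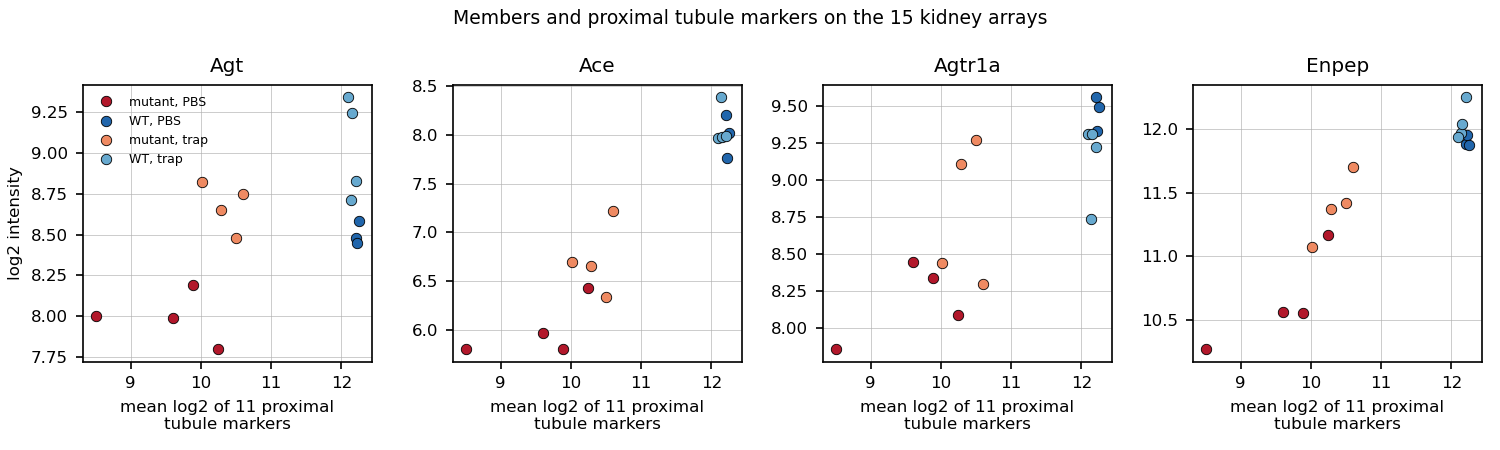
Log2 intensity of each member (y axis, Ace on 1427034_at) against the mean log2 intensity of 11 proximal tubule markers (x axis) on the 15 kidney arrays, coloured by group. Mutant arrays lie at 8.50 to 10.60 on the x axis and WT arrays at 12.10 to 12.25, so the arrays fall into 2 clusters that the genotype separates.

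Under the trap, 3 of the 4 members were still lower in mutant than in WT kidneys, beside 24.2% of all genes that were lower. The members' median change was -0.51 and that of all genes -0.06. Ace read 7.22, 6.34, 6.69 and 6.65 in trap mutants, against 8.39, 7.97, 7.98 and 7.99 in trap WT mice, and the groups did not overlap (-1.36 ± 0.18, adjusted p = 2.31e-05). Its second probe set changed by -0.88 ± 0.12 (adjusted p = 3.39e-05). Enpep read 11.70, 11.42, 11.07 and 11.37 in trap mutants, against 11.97, 11.94, 12.04 and 12.25 in trap WT mice, again without overlap (-0.66 ± 0.16, adjusted p = 0.00372).

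Agt read 8.75, 8.48, 8.82 and 8.65 in trap mutants, against 8.71, 9.34, 9.24 and 8.83 in trap WT mice, so that the groups overlapped. Its change of -0.36 ± 0.13 was called (adjusted p = 0.0389), but not when any of 4 arrays was left out, namely trap WT replicate 2 (-0.25) or 3 (-0.29) or trap mutant replicate 2 (-0.29) or 4 (-0.35), with adjusted p-values of 0.0761 to 0.123. It was also lost with the 18S covariate (-0.37, adjusted p = 0.114), the actin covariate (-0.30, adjusted p = 0.146) and only the compared groups (-0.36, adjusted p = 0.0886). Agtr1a read 8.30, 9.27, 8.44 and 9.11 in trap mutants, against 8.74, 9.31, 9.31 and 9.22 in trap WT mice. These groups overlapped too, the difference was -0.36 ± 0.20 with a 95% interval from -0.80 to 0.07, and it was not called (adjusted p = 0.158). Without trap mutant replicate 2, which had the highest reading of its group, it was -0.53 and was called (adjusted p = 0.0436). With arrays centred on their medians, which stood 0.15 higher in trap mutants, it was -0.52 (adjusted p = 0.0366). Among all called genes, 52.2% were lower without centring and 72.7% with it.

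In mutant kidneys, 3 of the 4 members were higher under the trap than under PBS, in a comparison in which 1.07% of all genes were higher. The members' median change was 0.70 and that of all genes -0.01. Agt was 1.60-fold higher, with every trap mutant (8.48 to 8.82) above every PBS mutant (7.80 to 8.19), and a change of 0.68 ± 0.13 (adjusted p = 0.0141). Enpep was 1.68-fold higher, at 0.75 ± 0.16 (adjusted p = 0.0257), with an overlap between the lowest trap mutant at 11.07 and the highest PBS mutant at 11.17. Ace was 1.66-fold higher, at 0.73 ± 0.18 (adjusted p = 0.0496), and the trap mutants (6.34 to 7.22) overlapped the PBS mutants (5.80 to 6.43). Agtr1a differed by 0.60 ± 0.20, with a 95% interval from 0.16 to 1.03, and was not called (adjusted p = 0.154).

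The calls for Ace and Enpep under the trap were close to the threshold. That for Ace was lost without any one of 12 of the 15 kidney arrays (0.56 to 0.75, adjusted p from 0.0505 to 0.153), all except PBS mutant replicate 2, trap mutant replicate 2 and trap WT replicate 1. The second Ace probe set differed by 0.34 ± 0.12 (adjusted p = 0.19). That for Enpep was lost without any one of 6 arrays, PBS mutant replicates 1 (0.62), 3 (0.72) and 4 (0.72) and trap mutant replicates 1 (0.64), 2 (0.74) and 4 (0.75), with adjusted p-values of 0.0531 to 0.0854. The call for Agt was kept without any 1 array (0.61 to 0.74).

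Other signals moved with the trap in mutant kidneys. The array's control probe set for 18S ribosomal RNA read 10.3 to 11.3 in trap mutants, against 11.8 to 12.6 in PBS mutants, and 11 to 11.6 in trap WT mice, against 11.9 to 12.0 in PBS WT mice. With that signal as a covariate none of the 3 calls remained (Ace 1.31, Enpep 0.79, Agt 0.65), and since it did not overlap between trap and PBS arrays, its part and that of the trap cannot be told apart in this fit. Of 11 proximal tubule markers none was called by limma, although 8 had an unadjusted p under 0.05, and their median change was 0.77. The trap mutant with the highest proximal tubule mean (10.60), replicate 1, also had the highest Ace (7.22) and Enpep (11.70) of its group, but the lowest Agtr1a (8.30), and Agt was highest in replicate 3 (8.82). The mean of 5 adipocyte markers was 10.05, 8.60, 8.75 and 8.12 in trap mutants, against 7.80, 8.78, 5.84 and 5.35 in PBS mutants, with a median change of 1.79 and none called by limma (4 at an unadjusted p under 0.05). Agt is known to be made by fat cells, and the part of these markers in its change was not tested.

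In WT kidneys none of the 4 members was called under the trap by limma, beside 0.877% of all genes called, and 1 had an unadjusted p under 0.05. Agt read 8.71, 9.34, 9.24 and 8.83 in trap WT mice, against 8.48, 8.45 and 8.58 in PBS WT mice, with no overlap, and its difference of 0.52 ± 0.14 did not pass (adjusted p = 0.112). Without trap WT replicate 1, the lowest of its group, it was 0.63 and passed (adjusted p = 0.0306). Agtr1a differed by -0.32 ± 0.22 (adjusted p = 0.591), Enpep by 0.15 ± 0.18 (0.776) and Ace by 0.09 ± 0.20 (0.905).

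Whether the trap acted differently in mutants and WT mice was tested as the interaction of genotype and trap in kidney. None of the 4 members was called by limma, beside 1.38% of all genes called. An unadjusted p under 0.05 was found for 3, a count with no share of all genes to set it against. Among them was Ace on its brightest probe set. Its second probe set, tested by limma as its own feature, gave 0.30 ± 0.18 (unadjusted p = 0.113). The difference between the trap effects was 0.91 ± 0.30 for Agtr1a (95% interval 0.27 to 1.56, adjusted p = 0.164), 0.64 ± 0.27 for Ace (0.297), 0.60 ± 0.24 for Enpep (0.273) and 0.15 ± 0.20 for Agt (0.802). Without PBS mutant replicate 2 the value for Enpep was 0.77 and was called (adjusted p = 0.0419). Comparisons within a tissue share groups of arrays, so the changes of a member in them are not independent of one another.

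**Figure D4:**
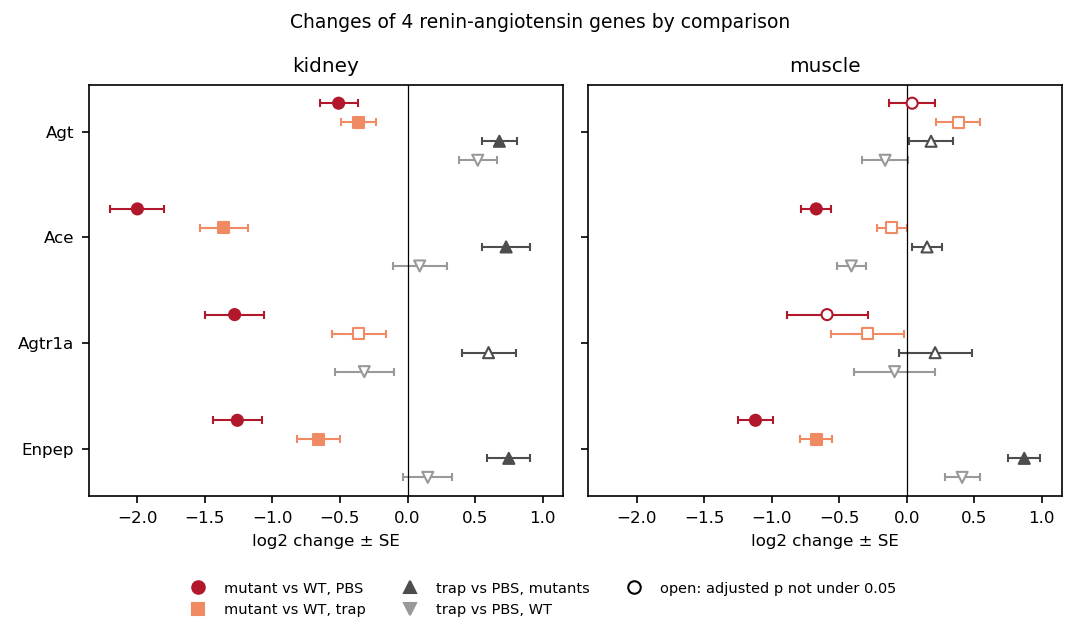
Log2 change (x axis, with SE) of the 4 members in kidney (left) and muscle (right) for 4 comparisons; filled symbols have an adjusted p under 0.05. In kidney, the genotype changes under PBS run from -2.0 (Ace) to -0.51 (Agt), and the trap changes in mutants from 0.60 (Agtr1a, open) to 0.75 (Enpep).

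In skeletal muscle, a tissue outside the labelled tubule deletion, 2 of the 4 members were lower in PBS mutants than in PBS WT mice. Of all genes 9.04% were lower and 6.93% higher. Enpep read 7.26, 7.44, 7.29 and 7.25 in mutants, against 8.53, 8.33 and 8.45 in WT mice, a gap with no overlap. It was 2.18-fold lower (-1.12 ± 0.13, adjusted p = 4.32e-05). Ace read 6.82, 7.01, 7.14 and 7.01 in mutants, against 7.65, 7.68 and 7.68 in WT mice. It was 1.59-fold lower (-0.67 ± 0.11, adjusted p = 0.00105), and on its second probe set the change was -0.65 ± 0.12 (adjusted p = 0.00166), here of like size.

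Agtr1a read 5.89, 5.17, 6.17 and 6.73 in PBS mutant muscle, against 6.82, 6.31 and 6.60 in PBS WT muscle. The mutant arrays spread over more than 1 log2 unit and overlapped the WT arrays, and the difference of -0.59 ± 0.30 (95% interval -1.22 to 0.04) did not pass (adjusted p = 0.203). Agt read 7.93, 7.74, 7.33 and 7.14 in mutants, against 7.75, 7.23 and 7.51 in WT mice, with a difference of 0.04 ± 0.17 (adjusted p = 0.922). The actin difference was -0.0611 to 0.141 in PBS mutant muscle, against 0.159 to 0.182 in PBS WT muscle, and with it as a covariate Enpep (-1.07) and Ace (-0.64) stayed called. Array medians were 0.12 lower in mutant muscle under PBS, and after centring Enpep changed by -1.01 and Ace by -0.56, both called. Centring brought the share of lower genes among the called ones to 34.3%, against 56.6% without it.

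In the muscle of mutants, Enpep alone of the 4 members was higher under the trap, where 4.18% of all genes were higher. It read 7.83, 8.40, 8.12 and 8.37 in trap mutants, above all PBS mutants at 7.25 to 7.44, and was 1.83-fold higher (0.87 ± 0.12, adjusted p = 0.00113). Ace differed by 0.15 ± 0.11 (adjusted p = 0.459), Agtr1a by 0.21 ± 0.27 (0.733) and Agt by 0.18 ± 0.16 (0.593). Lower genes made up 34.0% of the called ones without centring and 53.9% with it.

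Under the trap, Enpep was still lower in mutant than in WT muscle, where 1.51% of all genes were lower, and the other 3 members were not called. The trap WT arrays read 8.79, 8.82, 9.01 and 8.77, all above the trap mutants, whose change was -0.67 ± 0.12 (adjusted p = 0.0111). With the actin covariate that call was lost (-0.60, adjusted p = 0.128). Ace read 6.99, 7.05, 7.2 and 7.35 in trap mutants, against 7.21, 7.26, 7.45 and 7.11 in trap WT mice, overlapping groups that differed by -0.11 ± 0.11 (adjusted p = 0.753). Agt differed by 0.38 ± 0.16 (adjusted p = 0.323) and Agtr1a by -0.29 ± 0.27 (0.75). Lower genes made up 91.2% of the called ones without centring and 79.6% with it.

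In WT muscle none of the 4 members was called under the trap by limma, and 2 had an unadjusted p under 0.05. Of all genes 0.0619% were called, of which 45.5% were lower without centring and 57.1% with it. Ace differed by -0.41 ± 0.11 (adjusted p = 0.216) and Enpep by 0.41 ± 0.13 (0.27). For both the trap and PBS arrays did not overlap, but neither difference passed, and the share of all genes separated in this way was not counted. Agt differed by -0.16 ± 0.17 (0.742) and Agtr1a by -0.09 ± 0.30 (0.933), whose sign turned with the 18S (0.02) and actin (0.14) covariates. None of the 4 was called for the interaction of genotype and trap in muscle, where 0.169% of all genes were called. Of the 4 members, 2 had an unadjusted p under 0.05. The difference between the trap effects was 0.56 ± 0.16 for Ace (adjusted p = 0.138), 0.46 ± 0.18 for Enpep (0.257), 0.34 ± 0.23 for Agt (0.509) and 0.30 ± 0.40 for Agtr1a (0.759).

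Fibroblast markers changed in the same direction as Enpep in muscle in the comparisons that involve mutants, but not between trap and PBS in WT mice. Their mean over 6 genes was 8.76 to 9.79 in PBS mutants, against 11.52 to 11.65 in PBS WT mice, and 10.54 to 10.92 in trap mutants, against 11.36 to 11.74 in trap WT mice. The 2 WT ranges overlapped, while Enpep read 8.77 to 9.01 in trap WT mice and 8.33 to 8.53 in PBS WT mice. Among PBS mutants, replicate 4 had the highest fibroblast mean (9.79) and the lowest Enpep (7.25). All 6 were lower in PBS mutants (Col1a1 at -3.93 ± 0.27), and 4 of 6 were higher in mutants under the trap. Of 7 macrophage markers 4 were lower in PBS mutants, and of 10 smooth muscle, mesangial and pericyte markers 4. Beside these counts, 9.04% of all genes were lower in PBS mutants and 4.18% were higher in mutants under the trap. The part of these markers in the changes of Enpep and Ace was not tested.

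In WT mice under PBS, 3 of the 4 members were higher in kidney than in muscle, as were 28.5% of all genes. Enpep was 11.04-fold higher (3.46 ± 0.16, adjusted p = 7.66e-17), Agtr1a 7.39-fold (2.89 ± 0.28, adjusted p = 6.48e-10) and Agt 2.01-fold higher (1.01 ± 0.17, adjusted p = 9.05e-06). Ace, on its brightest probe set, differed by 0.33 ± 0.17 (95% interval -0.02 to 0.68, adjusted p = 0.0904). It was called without the arrays of trap mutant replicate 1 (0.33, adjusted p = 0.0498). On its second probe set PBS WT kidney averaged 7.16 and PBS WT muscle 7.11, with overlapping arrays. Array medians were 0.20 higher in kidney, and after centring the 3 genes stayed called, with Agt at 0.81. Lower genes made up 55.9% of those called without centring and 68.6% with it.

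The genotype change under PBS differed between the tissues for 1 member, Ace, beside 17.5% of all genes that were lower in this test. For Ace, on its brightest probe set, the kidney change minus the muscle change was -1.32 ± 0.22 (adjusted p = 2.62e-05). The second Ace probe set changed by -1.18 in kidney and -0.65 in muscle, a smaller gap. The size for Ace therefore depends on the probe set, and no test of the smaller gap is given here. Enpep, at -1.26 in kidney and -1.12 in muscle, had a difference of -0.13 ± 0.21 (95% interval -0.57 to 0.31, adjusted p = 0.669). Agt at -0.55 ± 0.22 (adjusted p = 0.0569) and Agtr1a at -0.69 ± 0.37 (0.154) did not pass. With centring, which adds to a difference because array medians moved oppositely in the tissues by 0.27 in all, Agt (-0.81, adjusted p = 0.00396) and Agtr1a (-0.96, adjusted p = 0.0307) passed as well. Agt also passed without the arrays of any of 4 mice, PBS WT replicate 1 (-0.69), trap WT replicate 2 (-0.55) and PBS mutant replicates 3 and 4 (-0.68 each), and Agtr1a without PBS mutant replicate 2 (-0.93). Lower genes made up 47.0% of those called without centring and 73.1% with it. For the trap effect in mutants, none of the 4 members was called by limma as different between the tissues, and 2 had an unadjusted p under 0.05. Of all genes 5.26% were called, 66.5% of them lower without centring and 52.9% with it. The differences were -0.12 ± 0.20 for Enpep, 0.38 ± 0.34 for Agtr1a (adjusted p = 0.612) and 0.50 ± 0.21 for Agt (adjusted p = 0.173). For Ace, on its brightest probe set, the difference was 0.58 ± 0.21 (adjusted p = 0.108). It was called without the arrays of PBS mutant replicate 2 (0.71, adjusted p = 0.0397). The second Ace probe set changed by 0.34 ± 0.12 in kidney and 0.27 ± 0.11 in muscle, a smaller gap, of which no test is given here.

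Each member had its own order of group means over the 8 groups. Enpep ran from 12.05 in trap WT kidney and 11.90 in PBS WT kidney, which overlapped, through 11.39 in trap mutant and 10.64 in PBS mutant kidney, which also overlapped, to 8.85, 8.44, 8.18 and 7.31 in the muscle of trap WT, PBS WT, trap mutant and PBS mutant mice. All kidney arrays lay above all muscle arrays for Enpep and Agtr1a. For Ace they did not: PBS mutant kidney (6.00) and trap mutant kidney (6.73) had the 2 lowest means, below the muscle groups at 6.99 to 7.67. Agt ran from 9.03 in trap WT kidney, through 8.67 in trap mutant and 8.51 in PBS WT kidney, to 8.0 in PBS mutant kidney, while the means of the 4 muscle groups lay between 7.34 and 7.71. Its kidney and muscle arrays overlapped too, with PBS mutant kidney at 7.80 to 8.19 and PBS mutant muscle at 7.14 to 7.93. Trap mutant muscle (7.63 to 7.80) did not overlap trap WT muscle (7.19 to 7.54), and every other pair of muscle groups did.

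Genes with the most similar pattern over the 15 kidney arrays were taken among those brighter than the median, by Pearson's r of the log2 values, as a description only. For Ace these were Gpx1 (0.986), B3galt5 (0.985) and Pdzd2 (0.983), and for Enpep Slc23a1 (0.979), Cubn (0.978) and Adtrp (0.975). For Agtr1a they were Slc7a7 (0.940), Slc25a3 (0.936) and Plcl2 (0.918), and for Agt Mettl7a2 (0.903), Rundc1 (0.897) and Serpina1f (0.896). Arrays share their genotype and treatment in these values. After the group means were taken out, the closest genes were Pck1 (0.962), Cyp4a31 and Fmo1 (0.953 each) for Enpep, Afap1l1 (0.908), Chchd3 (0.903) and Acot12 (0.899) for Ace, Scd2 (0.923), Fam50a (0.918) and Slc25a3 (0.910) for Agtr1a, and Nfatc2 (0.897), Pde4b (0.894) and Stat6 (0.886) for Agt. Slc25a3, a mitochondrial phosphate carrier, was the only gene on both lists of a member.

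Of 21 other genes of angiotensin enzymes, receptors and binding proteins, 18 were measured, and the others are not analysed here. In PBS kidneys 7 of the 18 were lower in mutants and none higher, with a median of -0.31, beside 26.7% of all genes lower and 24.9% higher. Anpep, the aminopeptidase N that cleaves angiotensin III, was 4.48-fold lower, with 5.84 ± 0.52 in mutants and 8.0 ± 0.18 in WT mice (-2.16 ± 0.27, adjusted p = 9.32e-06). Agtrap, which binds the AT1 receptor and promotes its internalisation, was 2.27-fold lower, with 7.60 ± 0.22 and 8.78 ± 0.08 (-1.18 ± 0.15, adjusted p = 8.12e-06). Klk1, the tissue kallikrein that frees kinins, changed by -0.98 ± 0.18 (adjusted p = 0.000392). The peptidases Ctsa (-0.61 ± 0.17, adjusted p = 0.00801) and Prcp (-0.38 ± 0.11, adjusted p = 0.0123) were lower as well, as were Mcpt4 (-0.38 ± 0.11) and the angiotensin-(1-7) receptor gene Mas1 (-0.36 ± 0.12), both dim, at 4.05 and 2.77 in mutants against 4.42 and 3.13 in WT mice. Without 1 array the call was lost for Ctsa (-0.43 without PBS WT replicate 1), Prcp (-0.33 without PBS WT replicate 2), Mcpt4 (-0.28 without PBS WT replicate 3) and Mas1 (-0.34, -0.33 and -0.32 without PBS WT replicate 1, PBS WT replicate 2 and PBS mutant replicate 1). Averaging the probe sets of Prcp gave -0.09. The second AT1 receptor gene, Agtr1b, read 3.52 ± 0.09 in mutants and 3.71 ± 0.09 in WT mice, and the AT2 receptor gene Agtr2 2.86 ± 0.07 and 2.98 ± 0.11, both not called.

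Under the trap 5 of the 18 were lower in mutant kidneys and 1 was higher, beside 24.2% and 22.2% of all genes, so the count of lower genes was near the background. Anpep (-1.83 ± 0.25), Klk1 (-0.99 ± 0.17), Agtrap (-0.66 ± 0.14), the neprilysin gene Mme (-0.65 ± 0.18) and the chymase gene Cma1 (-0.48 ± 0.17) were lower, and Prep was higher (0.25 ± 0.09). The call was lost for Cma1 without any one of 4 arrays (-0.44 to -0.38), trap WT replicates 1 and 2 and trap mutant replicates 3 and 4. It was lost for Prep without any one of 5 arrays (0.18 to 0.25), trap WT replicates 3 and 4 and trap mutant replicates 2, 3 and 4. With the 18S covariate the calls for Mme (-0.46), Cma1 (-0.26) and Prep (0.31) were lost, and after centring Prep was at 0.10 and not called. In mutant kidneys the trap was called for Ctsa alone (0.65 ± 0.16, adjusted p = 0.0486), at 11.23 ± 0.29 in trap mutants and 10.58 ± 0.13 in PBS mutants. That call was lost without any one of 11 of the 15 kidney arrays (0.56 to 0.70), where only the removal of PBS WT replicate 1, trap WT replicate 2 or 4 or trap mutant replicate 3 left it. It was lost too at 0.35 with the 18S covariate and at 0.38 with its probe sets averaged. Anpep differed by 0.89 ± 0.25 (adjusted p = 0.0828). In WT kidneys none of the 18 was called under the trap by limma (1 at an unadjusted p under 0.05), and none for the interaction (2).

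In PBS muscle 3 of the 18 were lower in mutants and 1 was higher, beside 9.04% and 6.93% of all genes. Prcp, a carboxypeptidase that shortens angiotensin II, was lower (-1.02 ± 0.14, adjusted p = 0.000174), at 6.45 ± 0.19 in mutants and 7.47 ± 0.10 in WT mice. The mast cell carboxypeptidase Cpa3 (-0.71 ± 0.22, adjusted p = 0.0355) and the dipeptidyl peptidase Dpp3 (-0.43 ± 0.13, adjusted p = 0.0384) were lower, and the prolyl peptidase Prep was higher (0.50 ± 0.13, adjusted p = 0.0175). These 3 calls rested on single arrays: that for Cpa3 was lost without PBS WT replicate 2 or 3 or PBS mutant replicate 1, 3 or 4 (-0.75 to -0.55), and that for Dpp3 without PBS WT replicate 2 or 3, PBS mutant replicate 1 or 3 or trap mutant replicate 4 (-0.43 to -0.33). That for Prep was lost without PBS WT replicate 1 or 2 or PBS mutant replicate 4 (0.41 to 0.45). With the 18S covariate none of these 3 was called (Cpa3 -0.83, Dpp3 -0.39, Prep 0.43) and after centring Cpa3 (-0.59) and Dpp3 (-0.31) were not. The trap in mutants was called for Cpa3 (0.98 ± 0.20, adjusted p = 0.0105) and Prcp (0.80 ± 0.13, adjusted p = 0.00264), both higher. The call for Prcp was lost with the mean of its probe sets (0.37, adjusted p = 0.0507), and that for Cpa3 with the 18S covariate (1.12, adjusted p = 0.0789). No gene of the 18 was called by limma between genotypes under the trap (4 at an unadjusted p under 0.05), in WT muscle under the trap (5) or for the interaction in muscle (4).

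**Figure D5:**
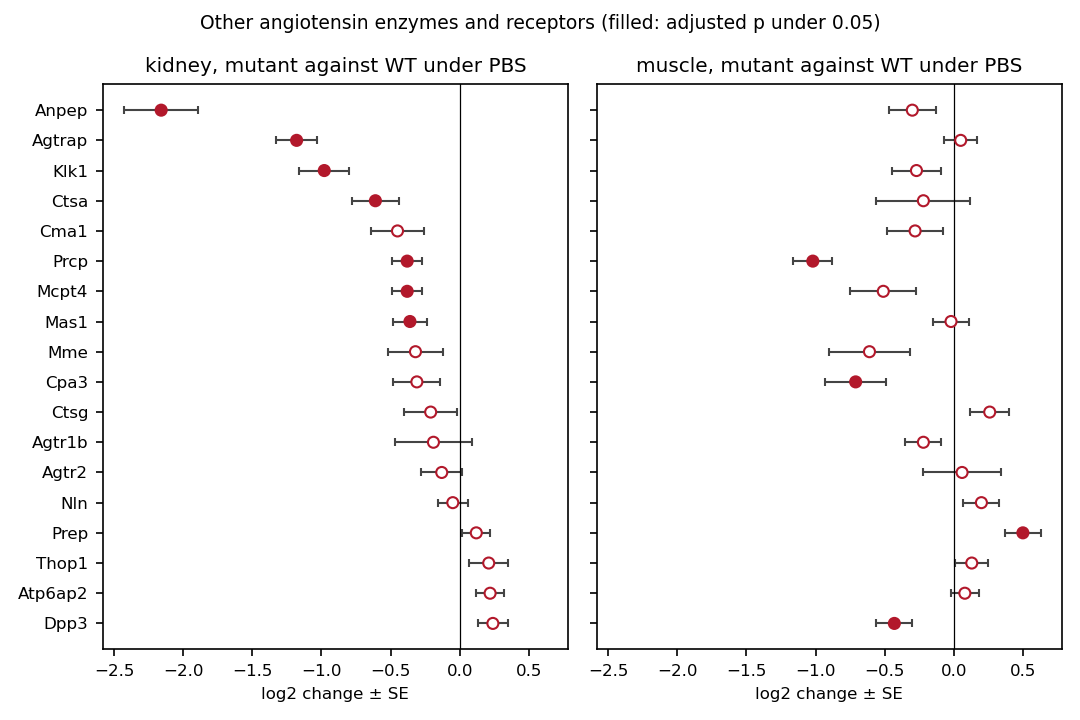
Log2 change between mutants and WT mice under PBS (x axis, with SE) of 18 other angiotensin enzymes, receptors and binding proteins in kidney (left) and muscle (right), ordered by the kidney change; filled points have an adjusted p under 0.05. Anpep lies at -2.16 in kidney and -0.30 in muscle, and Prcp at -0.38 in kidney and -1.02 in muscle.

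Klk1 stood 10.08 ± 0.32 log2 units higher in kidney than in muscle of PBS WT mice, and of the other 17 genes 7 were higher and 4 lower in kidney, beside 28.5% and 36.1% of all genes. The genotype change was more negative in kidney for Anpep (-1.86), Klk1 (-1.10) and Agtrap (-0.65) and less negative or more positive there for Dpp3 (0.66) and Prcp (0.65), in a test that called 17.5% of all genes lower and 19.7% higher. With quantile normalization the call for Klk1 was lost (-1.09, adjusted p = 0.0554), and after centring those for Dpp3 (0.39) and Prcp (0.38). That for Klk1 was also lost without the arrays of any one of 6 mice (-1.23 to -0.61): PBS WT replicates 1, 2 and 3, trap WT replicate 1 and PBS mutant replicates 1 and 3. The trap effect in mutants was lower in kidney than in muscle for Cpa3 (-1.01), Prcp (-0.78) and Dpp3 (-0.55). That for Cpa3 was lost without any one of 3 mice, PBS mutant replicate 1 (-1.02) and trap mutant replicates 2 (-0.92) and 3 (-0.88), and that for Dpp3 without any one of 6 (-0.59 to -0.43), PBS mutant replicates 1, 3 and 4 and trap mutant replicates 1, 2 and 4. The call for Dpp3 was also lost with centring (-0.49, adjusted p = 0.0659), and averaging the probe sets of Prcp left -0.31 and ended its call (adjusted p = 0.164).

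Around the pathway, 12 measured genes control renin release, and in PBS kidneys 4 were higher and 1 lower in mutants. Of all genes 24.9% were higher and 26.7% lower there, so the count of higher genes was near the background. The prostaglandin E2 receptor gene Ptger4 read 8.86 ± 0.15 in mutants and 6.75 ± 0.06 in WT mice (2.11 ± 0.16, adjusted p = 6.84e-08), and the prostaglandin E synthase gene Ptges 7.94 ± 0.26 and 7.01 ± 0.15 (0.93 ± 0.17, adjusted p = 0.000256). Under the trap Ptger4 was still higher in mutants (1.66 ± 0.15, adjusted p = 5.32e-07), while Ptges differed by 0.38 ± 0.15 (0.0533). In muscle Ptger4 was higher in mutants under the trap than under PBS (1.29 ± 0.22, adjusted p = 0.00389), a call lost with the 18S covariate (1.22, adjusted p = 0.0872). Of 14 genes of AT1 receptor signalling, 9 were higher and 4 lower in PBS mutant kidneys, with a median of 0.41, beside 24.9% and 26.7% of all genes. Cybb, the phagocyte NADPH oxidase subunit, read 8.81 ± 0.20 and 5.67 ± 0.18 (3.13 ± 0.13, adjusted p = 4.99e-10), and the arrestin gene Arrb2 8.34 ± 0.24 and 6.77 ± 0.11 (1.57 ± 0.14, adjusted p = 3.47e-07). Macrophage markers, 7 of 7 higher, moved with Cybb. Of 9 kinin and natriuretic peptide genes, the receptor gene Npr3 was higher (0.87 ± 0.25) and Npr2 lower (-0.40 ± 0.14). The call for Npr2 was lost without any one of 4 arrays (-0.40 to -0.33), PBS WT replicates 1 and 3 and PBS mutant replicates 1 and 4.

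All 10 measured genes of a list labelled mineralocorticoid response were called in PBS kidneys, 8 higher and 2 lower in mutants, with a median of 1.75. Of all genes 24.9% were higher and 26.7% lower there. The list was chosen with earlier results of these data known. A response to aldosterone, which acts downstream of angiotensin II, was not tested. Slc12a3, the thiazide-sensitive sodium chloride cotransporter of the distal convoluted tubule, read 8.02 ± 0.20 in mutants and 11.01 ± 0.17 in WT mice (-2.98 ± 0.19, adjusted p = 1.21e-08). Zbtb16 was higher by 2.30 ± 0.75 (adjusted p = 0.0179), with an SD of 1.59 among WT mice, and lost its call without PBS WT replicate 1 (1.56) or 3 (2.19). The 3 subunits of the epithelial sodium channel, chosen after their values were seen, were higher in PBS mutants by 2.25 ± 0.18 (Scnn1b), 1.94 ± 0.12 (Scnn1g) and 1.87 ± 0.17 (Scnn1a). In mutant kidneys under the trap, where 1.33% of all genes were lower, all 3 were lower than under PBS, by -1.09 ± 0.15 for Scnn1a (adjusted p = 0.00148), -0.67 ± 0.11 for Scnn1g (0.00576) and -0.67 ± 0.17 for Scnn1b (0.0463), and Slc12a3 was higher (1.47 ± 0.18, adjusted p = 0.000562). The call for Scnn1b was lost without any one of 11 kidney arrays (-0.69 to -0.59), that is without any except PBS mutant replicate 2, trap WT replicates 1 and 2 and trap mutant replicate 1. The interaction was called for Sgk1 (-2.04 ± 0.42, adjusted p = 0.0264), a kinase gene also chosen after its values were seen, and for Scnn1a (-1.44 ± 0.23, 0.0075), Scnn1b (-1.15 ± 0.24, 0.0308) and Scnn1g (-0.85 ± 0.17, 0.0207). Sgk1 itself was not called for the trap in mutant kidneys (-0.48 ± 0.29, adjusted p = 0.49) and was higher under the trap in WT kidneys (1.56 ± 0.31, adjusted p = 0.0275), a call lost with the 18S covariate (1.03, adjusted p = 0.43), with only the compared groups (1.56, adjusted p = 0.114) and without any one of the 3 PBS WT arrays (1.49 to 1.71). It averaged 12.36 ± 0.19 in PBS mutants, 10.51 ± 0.25 in PBS WT mice, 11.89 ± 0.37 in trap mutants and 12.08 ± 0.76 in trap WT mice. Single arrays decided 3 of the 4 interaction calls. Sgk1 lost it without PBS WT replicate 1 or 3, PBS mutant replicate 1 or 4 or trap mutant replicate 2 or 3 (-2.01 to -1.92), and Scnn1g without PBS WT replicate 1 or 2 (-0.83 each). Scnn1b lost it without any one of 9 arrays (-1.21 to -1.07), the PBS WT replicates 1, 2 and 3, trap WT replicate 4, PBS mutant replicates 1 and 4 and trap mutant replicates 2, 3 and 4. With the 18S covariate none of the 4 trap calls in mutants remained, at -1.09 for Scnn1a (adjusted p = 0.259), -0.92 for Scnn1g (0.184), -0.82 for Scnn1b (0.412) and 1.13 for Slc12a3 (0.29), and the interaction call of Scnn1b was lost as well (-1.23, adjusted p = 0.066). The proximal tubule values given above moved in the same arrays, and their part was not tested.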

How the data were processed

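The authors deposited 1 table of normalized log2 values for 35088 probe sets on 30 arrays. Per the labels the arrays were Affymetrix chips, and no source used here names the summary and normalization behind these values. Symbols came from the platform's annotation: 31563 probe sets have 1 symbol, 825 several and 2700 none listed. A gene was represented by its brightest probe set in the tissue. Groups were compared with limma 3.58.1 in R 4.3.3 (lmFit, contrasts.fit, eBayes) over all 4 groups of a tissue, without a filter, with Benjamini-Hochberg adjustment over 17782 genes. Fits over both tissues treated the mouse as a block (duplicateCorrelation, consensus correlation 0.0749), with mice matched by the number in the sample titles. Replicates are different mice. On simulated data with 200 changed genes, the PBS genotype fit recovered 91% of changes of 1 log2 unit in kidney and 92% in muscle, and 100% of those of 2. It made 8 false calls in kidney and 7 in muscle. Each simulated gene had the same spread in every group, and far fewer genes changed than the 9174 called in PBS kidney. The simulation therefore does not give the recovery in the real data or of smaller changes. The number of arrays limits precision.

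The members and all gene lists were chosen with earlier results of these data known. Members were named in every comparison, other angiotensin genes where called (every one under PBS between genotypes, up to 6 elsewhere), and of each further list the 2 called genes with the largest change in PBS kidney. The closest genes were the 3 with the highest correlation. Alternatives were other normalizations and scalings, probe set choices, covariates, array weights, prior variances, blocks, subsets of groups and leaving out each array.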

Additional observations from a re-analysis of the deposited data

Results flagged for a closer look

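Of 30 groups of 4 arrays examined for the members, 2 held an array apart from the rest by more than Dixon's critical ratio of 0.829, and chance flags about 1 in 20 such groups. Both were trap WT kidney replicate 1, at 8.39 for Ace, above 7.97 to 7.99 on the other 3 arrays, and at 8.74 for Agtr1a, below 9.22 to 9.31.

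The genotype change under PBS differed between kidney and muscle by a test of the difference (limma, adjusted p under 0.05). The kidney change minus the muscle change was -1.32 for Ace, -1.86 for Anpep, -1.10 for Klk1, -0.65 for Agtrap, 0.66 for Dpp3 and 0.65 for Prcp. The value for Ace is that of its brightest probe set. Its second probe set changed by -1.18 in kidney and -0.65 in muscle, a smaller gap. After centring, Dpp3 (0.39) and Prcp (0.38) no longer passed, nor did Klk1 with quantile normalization (-1.09, adjusted p = 0.0554). For the trap in mutants, the difference was -1.01 for Cpa3, -0.78 for Prcp and -0.55 for Dpp3. Dpp3 no longer passed after centring (-0.49, adjusted p = 0.0659) or quantile normalization (-0.49, adjusted p = 0.0601), nor Prcp with the mean of its probe sets (-0.31, adjusted p = 0.164).

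The trap effect in kidney differed between mutants and WT mice for Sgk1 (-2.04), Scnn1a (-1.44), Scnn1b (-1.15) and Scnn1g (-0.85).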

How the results depend on the processing

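Of 52 changes of members recomputed, 33 kept their direction and their side of the threshold under every alternative, and for those that did not the cause was not tested. The 18S covariate gave, for the trap in mutant kidney, 1.31 for Ace, 0.79 for Enpep, 0.65 for Agt (all no longer called) and -0.27 for Agtr1a, and -0.07 for Agt in mutant muscle. For Ace the trap call in mutant kidney was also lost with the actin covariate (0.70), every probe set as its own feature (0.73), the mean of its probe sets (0.54), only the compared groups (0.73), quantile normalization (0.68) and the replicate block (0.73), and for Enpep with only the compared groups (0.75). Between genotypes under the trap in kidney, Agt lost its call with 18S (-0.37), actin (-0.30) and only the compared groups (-0.36), and Agtr1a gained one with 18S (-0.72), actin (-0.64) and centring (-0.52). Agt in WT kidney under the trap gained one with array weights (0.53). In muscle, Agt under PBS turned to -0.05 with actin and -0.21 with array weights, Agtr1a in WT mice under the trap to 0.02 (18S) and 0.14 (actin), and Enpep between genotypes under the trap lost its call with actin (-0.60). Between tissues, the genotype difference gained a call for Agt with centring (-0.81), above-median genes (-0.55) and quantile normalization (-0.71) and for Agtr1a with centring (-0.96), and the trap difference of Enpep turned to 0.08 with quantile normalization. Kif3a in muscle under PBS turned to 0.01 with array weights.

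Without 1 array, the trap change in mutant kidney ran from 0.56 to 0.87 for Ace, 0.62 to 0.92 for Enpep and 0.61 to 0.74 for Agt. In WT kidney it ran from 0.42 to 0.63 for Agt and -0.03 to 0.19 for Ace. Between genotypes under the trap in kidney, it ran from -0.46 to -0.25 for Agt, -0.53 to -0.20 for Agtr1a and -0.15 to 0.06 for Kif3a, and the interaction of Enpep from 0.47 to 0.77. In muscle, the range was -0.10 to 0.17 for Agt and -0.27 to 0.07 for Kif3a under PBS, and under the trap -0.06 to 0.46 for Agtr1a in mutants and -0.31 to 0.11 in WT mice. Between tissues it was 0.21 to 0.45 for Ace, -0.69 to -0.41 (Agt) and -0.93 to -0.53 (Agtr1a) for the genotype difference, and 0.36 to 0.71 (Ace) and -0.34 to 0.01 (Enpep) for the trap difference.

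The count of other angiotensin genes called in PBS kidney was 7, and 12 with array weights (5 to 9 without 1 array). Under the trap it was 6, and 3 with 18S or actin (4 to 8), and for the trap in mutants 1, and 0 with 18S, actin, array weights, every probe set, the mean of probe sets, only the compared groups or the replicate block (0 to 1). In PBS muscle it was 4, and 1 with 18S or actin and 2 with centring or only the compared groups (1 to 5). Under the trap it was 0, and 1 with array weights, above-median genes or the replicate block (0 to 2), and for the trap in mutants 2, and 1 with 18S, the mean of probe sets or above-median genes (2 to 3). Over all genes, 9174 were called in PBS kidney (5807 to 11395 over the settings) and 427 for the trap in mutant kidney (1 to 770). Same-numbered arrays of different groups did not deviate together, with mean correlations of 0.0383 in kidney (-0.124 to 0.342) and 0.0106 in muscle (-0.243 to 0.301) over 21 pairs each, so the numbers were not taken as pairs. With the replicate block, the trap change in mutant kidney was not called for Ace (0.73, adjusted p = 0.0577), Ctsa (0.65, 0.0525) or Scnn1b (-0.67, 0.08), nor the interaction for Scnn1b (-1.17, 0.0715) or Scnn1g (-0.83, 0.0566), nor Dpp3 in PBS muscle (-0.45, 0.0623). The block changed the call of no other member change.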
